A study of Mus musculus with 9 samples.

Results

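The data concern H19, the insulin-like growth factors (IGFs), their receptors and their binding proteins during conversion of mouse fibroblasts toward muscle. The 10 genes were listed by name as H19, Igf2, Igf1, Igf1r, Igf2r, Igfbp2, Igfbp3, Igfbp4, Igfbp5 and Igfbp6, out of 35675 genes with a row in the tables and 15714 that passed the filter on low counts. All 10 passed that filter. They were chosen by name with the summed estimated counts of these 9 libraries, and the differences between the groups, already known. Their levels and fold changes are therefore given as a description and without p-values. The calls of members below are part of that description.

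RNA was read from 9 libraries of polyadenylated RNA of mouse embryonic fibroblasts (MEFs). Every library, the untreated ones included, carried the Dmdmdx genotype, a mouse model of Duchenne muscular dystrophy with a stop codon in the dystrophin gene. There were 3 untreated libraries (called MEF), 3 with ectopic MyoD, the transcription factor that starts the skeletal muscle programme (called MyoD), and 3 with MyoD and small molecules named F/R/C, which the labels do not spell out (called MyoD F/R/C). The labels give embryonal tissue as the source, and state neither the age, the vector, the dose nor the time of treatment. They do not state whether the 3 libraries of a group were separate cultures or embryos, so each p-value below reflects the spread between these libraries alone.

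IGF1 and IGF2 are secreted growth factors that act through the receptor tyrosine kinase IGF1R, which signals through insulin receptor substrates, PI3K and Akt. IGF2R, the cation-independent mannose 6-phosphate receptor, carries IGF2 to lysosomes, and the IGF binding proteins hold the ligands outside the cell and govern their access to the receptor. H19 is a long non-coding RNA, and H19 and Igf2 form an imprinted pair: in most fetal tissues H19 is transcribed from the maternal and Igf2 from the paternal chromosome, with shared enhancers and a methylated control region between them. Both are abundant in the embryo and are induced when myoblasts differentiate. IGF2 acts there as an autocrine differentiation factor.

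H19 (ENSMUSG00000000031) lies on chromosome 7 at 142575529 to 142578143 and Igf2 (ENSMUSG00000048583) at 142650766 to 142666816, both on the minus strand of GRCm38, with annotated start sites 88.7 kb apart. Each gene is the host of a miRNA, and the mature sequences are shown because they are the short products encoded within these 2 RNAs. They come from RefSeq on GRCm38.p6, all on the minus strand and inside the host gene, with the seed (bases 2 to 8) in capitals.
mmu-miR-675-5p (H19, chr7:142577112-142577133): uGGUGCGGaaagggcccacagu
mmu-miR-675-3p (H19, chr7:142577078-142577099): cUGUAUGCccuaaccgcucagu
mmu-miR-483-5p (Igf2, chr7:142654968-142654989): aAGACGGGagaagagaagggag
mmu-miR-483-3p (Igf2, chr7:142654932-142654952): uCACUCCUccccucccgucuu
The 4 seeds differ from one another, and 0 other mature miRNAs in the table share any of them. The miRNAs themselves were not analysed here: the values below are for the host RNAs.

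RefSeq promoter windows (250 bases before to 50 after a start site, GRCm38.p6) were matched for 9 members by symbol, 13 windows in all. H19 had no entry. The windows of the 3 protein-coding members called for MyoD F/R/C against MEF are shown, 5′ to 3′ on the strand of the gene. Capitals mark matches to 3 short motifs on either strand. The first, CAGCTG, is the core of an E-box of the kind that MyoD binds to in muscle genes. The second, TATAAA, is the usual form of the TATA box near the start of transcription. The third, GGGCGG, is the GC box that is bound by Sp1 and related proteins. No 2 of these matches overlapped in a window.
Igf2 (chr7:142657447-142657746, minus strand): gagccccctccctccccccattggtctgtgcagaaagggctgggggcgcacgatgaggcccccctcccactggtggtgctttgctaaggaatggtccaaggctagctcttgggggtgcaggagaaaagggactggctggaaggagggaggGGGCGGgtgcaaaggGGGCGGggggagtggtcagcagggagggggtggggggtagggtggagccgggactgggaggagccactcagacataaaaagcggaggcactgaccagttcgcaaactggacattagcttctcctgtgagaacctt
Igf1 (chr10:87860861-87861160, plus strand): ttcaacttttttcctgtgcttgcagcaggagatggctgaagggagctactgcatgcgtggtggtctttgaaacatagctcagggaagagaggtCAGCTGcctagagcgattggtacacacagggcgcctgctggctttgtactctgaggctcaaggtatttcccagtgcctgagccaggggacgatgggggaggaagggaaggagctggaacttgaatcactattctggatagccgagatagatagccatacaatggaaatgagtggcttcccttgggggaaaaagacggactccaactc
Igfbp4 (chr11:99040994-99041293, plus strand): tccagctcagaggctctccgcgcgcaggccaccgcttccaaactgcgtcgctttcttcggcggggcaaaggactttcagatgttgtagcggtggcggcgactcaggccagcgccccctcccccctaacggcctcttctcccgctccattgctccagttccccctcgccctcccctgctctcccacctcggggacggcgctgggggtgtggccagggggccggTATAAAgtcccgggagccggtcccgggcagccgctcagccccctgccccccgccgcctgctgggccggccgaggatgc
Igf2 had 4 windows. The one shown begins transcription at the start site of Igf2-201, the Igf2 transcript with the largest share in MEF libraries, and holds 2 GC boxes, 100 and 85 bases before the start site. The Igfbp4 window holds 1 TATAAA, 28 bases before the start site of Igfbp4-201, and the Igf1 window 1 CAGCTG, 157 bases before its start site. That Igf1 start site, at 87861111, has no annotated Igf1 transcript beginning within 100 bases. Igf1-202, the Igf1 transcript with the largest share in MEF libraries, begins at 87859068, outside the window. CAGCTG was found in 1 of the 13 member windows, against 16.3% of all 32851 windows. TATAAA was found in 2, against 13.6%, and GGGCGG in 5, against 35.7%. A match says only that these letters are present.

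The libraries held 21112071 to 24291056 estimated counts each. Myod1 had 56, 10 and 130 counts in the MEF libraries, 161, 239 and 394 with MyoD, and 6412, 6163 and 6874 with MyoD F/R/C, and these do not separate an introduced copy from the endogenous gene. CPM below stands for a gene's counts after scaling every library to one common size. The 15 markers of differentiated muscle together reached 5.54 and 5.76 CPM in the first and second MEF libraries but 680 CPM in the third, with 1041 to 3326 CPM with MyoD and 40505 to 59041 CPM with MyoD F/R/C, so MEF replicate 3 carried muscle transcripts. All 15 fibroblast markers were detected in every library, with sums of 20089 to 83171 CPM in MEF, 9220 to 35574 CPM with MyoD and 5918 to 9036 CPM with MyoD F/R/C. A gene was called where its adjusted p was under 0.05. Called genes made up 37.6% of the genes tested for MyoD F/R/C against MEF (19.5% higher and 18.1% lower) and 33.9% for MyoD F/R/C against MyoD (2796 higher and 2531 lower, or 2295 higher and 3119 lower with total counts as the only scaling). For MyoD against MEF it was 0%, with 732 genes (4.66%) at an unadjusted p under 0.05 and 171 called by DESeq2. That 0% comes from a fit without pairing, and an edgeR fit that paired libraries by replicate number called 13.

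H19 and Igf2, the imprinted pair, were the members with the greatest excess in the MyoD F/R/C libraries. The H19 level was 3619, 3611 and 3452 CPM in the MEF libraries, 3353, 3331 and 2312 CPM with MyoD, and 18239, 24636 and 27390 CPM with MyoD F/R/C. Every MyoD F/R/C library lay above every other library. The mean H19 level was 3561 ± 94.5 CPM (SD, n = 3) in MEF, 2999 ± 595 CPM with MyoD and 23422 ± 4695 CPM with MyoD F/R/C, a difference of 6.58-fold from MEF (log2 fold change 2.72 ± 0.35 SE) and 7.81-fold from MyoD (2.97 ± 0.35). Among the MEF libraries, replicate 3 had the lowest H19 level.

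The Igf2 level was 1112, 2770 and 1505 CPM in the MEF libraries, 1584, 2123 and 1106 CPM with MyoD, and 13736, 14147 and 14718 CPM with MyoD F/R/C. The MyoD F/R/C libraries were again separate from the rest, while the MEF and MyoD libraries overlapped. The mean Igf2 level rose from 1796 ± 866 CPM (SD, n = 3) in MEF and 1605 ± 509 CPM with MyoD to 14200 ± 493 CPM, a difference of 7.91-fold (log2 fold change 2.98 ± 0.44 SE) and 8.85-fold (3.15 ± 0.44). The untreated MEF libraries varied more in Igf2 than the MyoD F/R/C libraries did.

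On TPM, a scale that corrects for transcript length, H19 ranked 18 to 24 among all genes in the MEF libraries, 17 to 55 with MyoD and 1 in each MyoD F/R/C library. Igf2 ranked 48 to 218 in MEF, 68 to 240 with MyoD and 6 to 11 with MyoD F/R/C. H19 therefore stood above Igf2 in every library. The ratio of H19 to Igf2 in TPM was 3.02 ± 1.31 (SD, n = 3) in MEF, 2.58 ± 0.47 with MyoD and 2.09 ± 0.29 with MyoD F/R/C, and these ranges overlapped. Together the 10 members took 1.16% ± 0.24 of all counts in MEF, 1.10% ± 0.31 with MyoD and 4.04% ± 0.24 with MyoD F/R/C, where H19 alone took 1.80% to 2.41% and Igf2 1.30% to 1.35%.

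Igf1, the other ligand, went the opposite way. The Igf1 level was 124.9, 219 and 59.8 CPM in the MEF libraries, 52.3, 92.3 and 9.38 CPM with MyoD, and 21.4, 25.8 and 16.7 CPM with MyoD F/R/C. All MyoD F/R/C libraries lay below all MEF libraries, whereas MyoD replicate 3 lay below every MyoD F/R/C library. The mean Igf1 level was 135 ± 80.01 CPM (SD, n = 3), 51.3 ± 41.4 CPM and 21.3 ± 4.55 CPM, so MyoD F/R/C lay 6.32-fold below MEF (log2 fold change -2.66 ± 0.75 SE) and 2.41-fold below MyoD (-1.27 ± 0.72). With MyoD alone the level was below the same-numbered MEF library in 3 of 3 pairs (log2 fold change -1.39 ± 0.72). The Igf1 call against MEF was lost without MEF replicate 2, without any 1 of the MyoD F/R/C libraries, and with counts scaled from TPM, where the log2 fold change was -1.87. Against MyoD, Igf1 was called without MyoD replicate 3 and without the third MEF and MyoD libraries together. That log2 fold change of -1.27 was -0.55 without MyoD replicate 2 and -0.59 with counts scaled from TPM. In TPM, Igf2 exceeded Igf1 21.7-fold ± 10.7 (SD, n = 3) in MEF, 73.3-fold ± 61.2 with MyoD and 622-fold ± 259 with MyoD F/R/C.

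Of the 10 members, 4 were called for MyoD F/R/C against MEF (H19 and Igf2 higher, Igf1 and Igfbp4 lower) beside 37.6% of all genes, or 19.5% higher and 18.1% lower. For MyoD F/R/C against MyoD, 3 were called (H19 and Igf2 higher, Igfbp4 lower) beside 33.9%, or 17.8% higher and 16.1% lower, and for MyoD against MEF 0. The same 4 and 3 genes were those whose libraries did not overlap, beside 53.2% and 49.8% of all genes. The list was drawn up from these comparisons, so nothing is read from these shares. The median log2 difference of the 10 members was 0.16 against MEF and 0.16 against MyoD, beside -0.04 and -0.02 over all genes tested. With total counts as the only scaling the medians over all genes moved to -0.13 and -0.20. The MyoD F/R/C comparisons with MEF and with MyoD share the 3 MyoD F/R/C libraries.

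**Figure D1:**
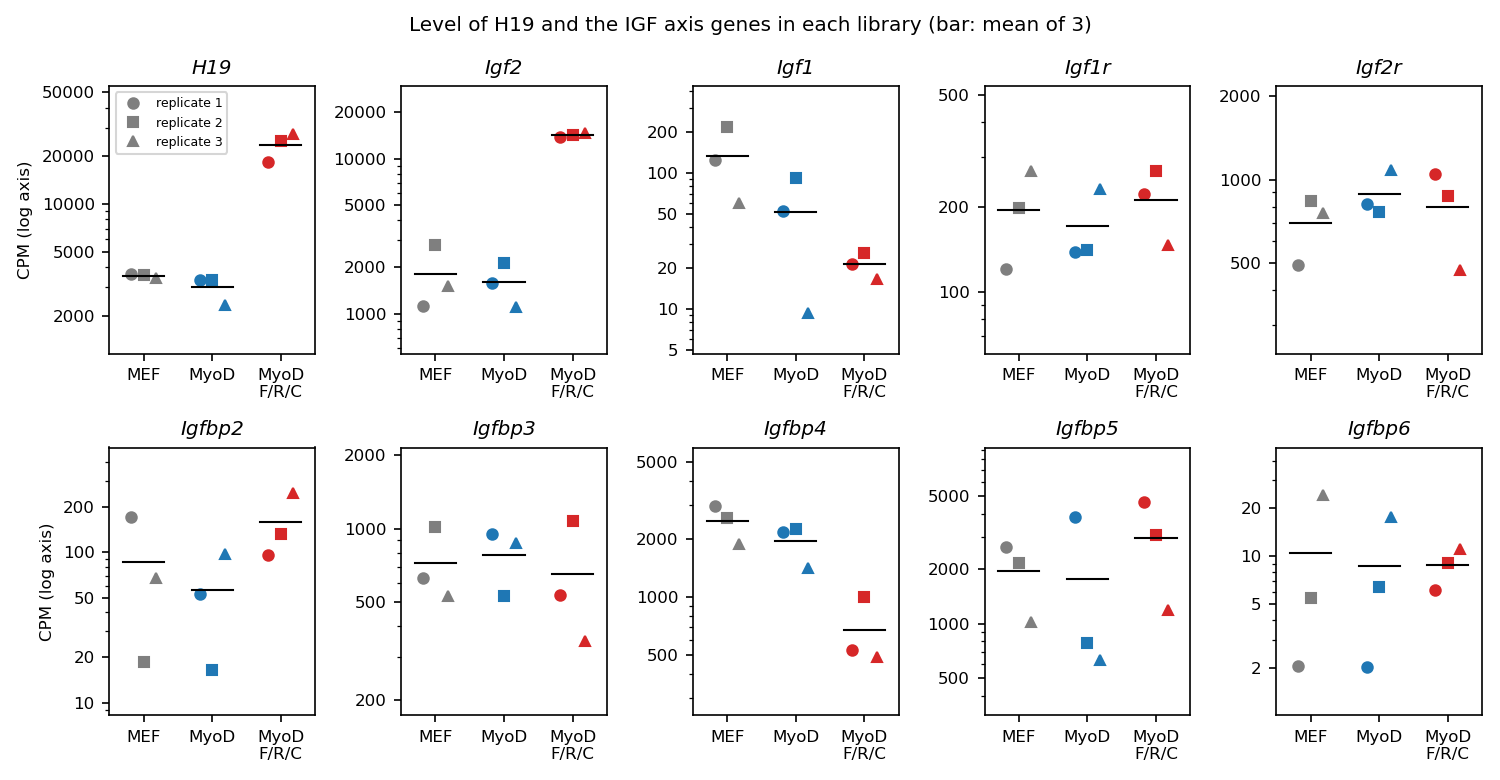
Level of each of the 10 genes in CPM on a log axis, by group, with 1 point per library (circle, square and triangle for replicates 1, 2 and 3) and a bar at the mean of 3. For H19 and Igf2 the 3 MyoD F/R/C points lie above all others, and for Igfbp4 below all others. Igf1r, Igf2r, Igfbp2, Igfbp3, Igfbp5 and Igfbp6 overlap across the groups.

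Both receptor genes overlapped across all groups. The Igf1r level was 121, 198 and 268 CPM in MEF, 139, 141 and 232 CPM with MyoD, and 222, 268 and 147 CPM with MyoD F/R/C. Its log2 fold change was 0.12 ± 0.35 (SE) for MyoD F/R/C against MEF and 0.32 ± 0.35 against MyoD. The level of Igf2r, which clears IGF2, was 495, 840 and 759 CPM in MEF, 819, 766 and 1085 CPM with MyoD, and 1051, 871 and 474 CPM with MyoD F/R/C. Its log2 fold change was 0.19 ± 0.34 against MEF and -0.16 ± 0.34 against MyoD. Within the MyoD F/R/C group, replicate 3 was lowest for both receptors. Per length, Igf2r stood above Igf1r in every library, with a TPM ratio of 4.79 ± 1.03 (SD, n = 3) in MEF, 6.31 ± 0.50 with MyoD and 3.78 ± 1.06 with MyoD F/R/C.

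Among the binding protein genes only Igfbp4, whose product restrains IGF action until it is cleaved by the protease PAPP-A, was separate between MyoD F/R/C and the other groups. The Igfbp4 level was 2965, 2552 and 1877 CPM in the MEF libraries, 2165, 2245 and 1421 CPM with MyoD, and 533, 1005 and 492 CPM with MyoD F/R/C. Its mean was 2465 ± 549 CPM (SD, n = 3), 1944 ± 455 CPM and 677 ± 285 CPM, so MyoD F/R/C lay 3.64-fold below MEF (log2 fold change -1.87 ± 0.37 SE) and 2.87-fold below MyoD (-1.52 ± 0.37). In TPM, Igfbp4 ranked 13 to 35 among all genes in MEF and 144 to 352 with MyoD F/R/C.

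Igfbp5, a binding protein that myoblasts secrete as they differentiate, varied more within groups than between them. Its level was 2647, 2148 and 1026 CPM in MEF, 3874, 783 and 628 CPM with MyoD, and 4640, 3059 and 1183 CPM with MyoD F/R/C. In each group replicate 1 was highest and replicate 3 lowest, and each MyoD F/R/C library lay above the same-numbered MEF and MyoD libraries. The log2 fold change was 0.61 ± 0.77 (SE) against MEF and 0.75 ± 0.77 against MyoD. MyoD replicate 1 decided the value: without it Igfbp5 was 2.06 higher on the log2 scale with MyoD F/R/C than with MyoD, and MyoD against MEF stood at -1.46 in place of -0.14.

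The Igfbp2 level was 173, 18.6 and 67.3 CPM in MEF, 53.0, 16.5 and 98.1 CPM with MyoD, and 96.3, 133 and 249.8 CPM with MyoD F/R/C. All groups overlapped, with log2 fold changes of 0.89 ± 0.82 (SE) against MEF and 1.52 ± 0.83 against MyoD. The value against MEF was 1.84 without MEF replicate 1 and 0.36 without MEF replicate 2, and that against MyoD was 2.191 without MyoD replicate 3. Igfbp3, the main carrier of IGFs in serum, stood at 629, 1013 and 529 CPM in MEF, 951, 529 and 871 CPM with MyoD, and 534, 1077 and 346 CPM with MyoD F/R/C, with log2 fold changes of -0.15 ± 0.45 and -0.27 ± 0.45. Igfbp6, whose product prefers IGF2, stood at 2.01 to 24.2 CPM. It was highest in replicate 3 of each group. Its log2 fold change against MEF was -0.27 ± 0.93, with 1.16 without MEF replicate 3 and 0.46 with libraries paired by replicate number. Against MyoD it was 0.01 ± 0.93, with 0.58 under that pairing, and its sign turned with total counts as the only scaling (-0.15).

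The summed level of the 5 Igfbp genes was 4539 ± 1157 TPM (SD, n = 3) in MEF, 3901 ± 1073 TPM with MyoD and 2127 ± 891 TPM with MyoD F/R/C. Igfbp4 made up 70.0% ± 1.72 of that sum in MEF, 66.7% ± 12.1 with MyoD and 32.7% ± 6.31 with MyoD F/R/C, and its lowest share outside MyoD F/R/C (57.7%) lay above its highest share within it (39.1%). Igfbp5 took 12.4% ± 2.78, 12.2% ± 10.20 and 32.3% ± 15.8 in the same order. Igfbp2 took 3.86% ± 2.94, 3.44% ± 3.16 and 15.5% ± 12.9, and the last mean rests on MyoD F/R/C replicate 3, since the 3 MyoD F/R/C shares were 7.60%, 8.505% and 30.3%.

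**Figure D2:**
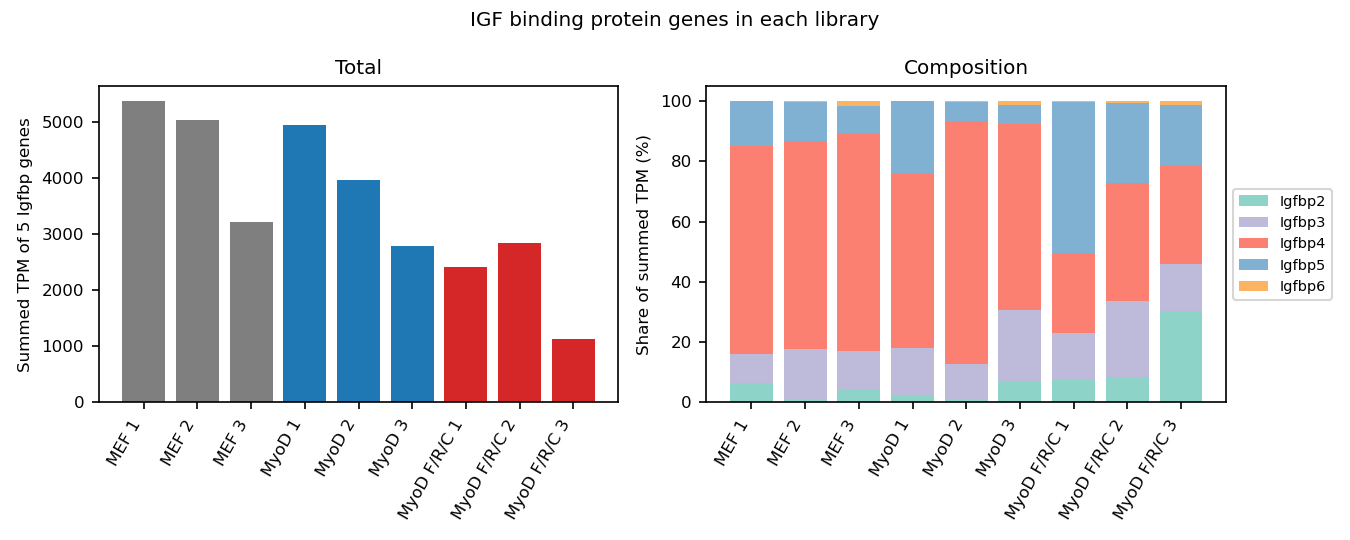
Left, summed TPM of Igfbp2, Igfbp3, Igfbp4, Igfbp5 and Igfbp6 in each library. Right, the percent of that sum from each gene. Igfbp4 makes up 57.7% to 80.5% of the sum in the MEF and MyoD libraries and 26.5% to 39.1% in the MyoD F/R/C libraries.

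**Figure D3:**
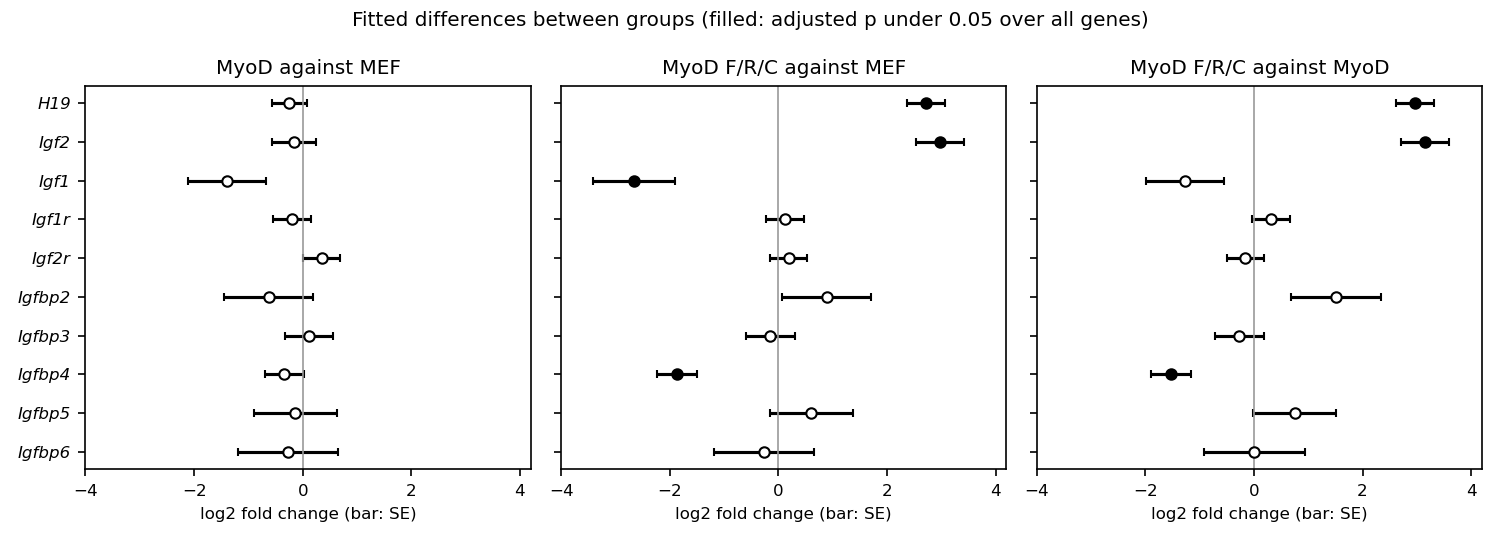
Log2 fold change of each gene (points, with SE as bars) in the 3 comparisons, each fitted over all 9 libraries. Filled points are genes called over all genes tested: 0 for MyoD against MEF, 4 for MyoD F/R/C against MEF and 3 for MyoD F/R/C against MyoD.

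H19, Igf2 and Igfbp4 were called for MyoD F/R/C against both other groups in all 18 alternative settings. The members were chosen with these differences known, so this describes the dependence on processing and is no further support. Without any 1 library the H19 difference from MEF ranged from 2.59 to 2.87 on the log2 scale, that of Igf2 from 2.68 to 3.38 and that of Igfbp4 from -2.27 to -1.68. The muscle and fibroblast marker sums given above also separated the MyoD F/R/C libraries from the other groups, the fibroblast sums narrowly (at most 9036 against at least 9220 CPM). Col1a1, Col1a2 and S100a4 were lower in every MyoD F/R/C library than in any other. Other fibroblast markers, such as Thy1, Twist2 and Col3a1, overlapped. Dcn stood at 251, 368 and 105 CPM with MyoD F/R/C, above the same-numbered MyoD libraries (127, 22.5 and 10.2 CPM). From MEF to MyoD the muscle sum rose, to 1041 to 3326 CPM, and the mean H19 and Igf2 levels did not rise. Those muscle sums stayed far below the 40505 to 59041 CPM with MyoD F/R/C. The part of cell composition in the differences of H19, Igf2 and Igfbp4 was not tested. In bulk RNA, fewer cells of a type and less RNA per cell cannot be told apart. The part of the following lists of other cell types was not tested either.

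The 9 epithelium markers summed to 1.07 to 3.00 CPM in MEF, 2.51 to 13.998 CPM with MyoD and 12.5 to 18.4 CPM with MyoD F/R/C. Of these, the keratin gene Krt19 had 292, 158 and 250 counts with MyoD F/R/C and 12 to 124 elsewhere, and Cdh1, which encodes E-cadherin, had 36, 68 and 41 against at most 4. The basal keratin genes Krt5 and Krt14 had 0 in every library, and Epcam had at most 7 counts. The 13 macrophage markers summed to 3.38 to 12.9 CPM in MEF, 6.08 to 20.4 CPM with MyoD and 12.2 to 19.1 CPM with MyoD F/R/C. Within that list Itgam and Mrc1 were higher in every MyoD F/R/C library than in any other, at 107, 92 and 55 counts of Itgam and 150, 119 and 76 of Mrc1, against at most 11 and 50. Ptprc, the pan-leukocyte marker, had at most 5 counts and Adgre1 had 0 with MyoD F/R/C. The 10 fetal liver markers summed to 16.6 to 39.2 CPM in MEF, 4.76 to 18.7 CPM with MyoD and 5.67 to 58.8 CPM with MyoD F/R/C. Most of that sum was Trf, the transferrin gene, at up to 1188 counts in MyoD F/R/C replicate 2, while Alb had at most 93 counts, Afp at most 2 and Ttr at most 1.

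The 10 endothelium markers summed to 16.1 to 62.3 CPM in MEF, 7.65 to 19.8 CPM with MyoD and 13.4 to 21.6 CPM with MyoD F/R/C. Vwf, which encodes von Willebrand factor, had 186, 228 and 143 counts with MyoD F/R/C and at most 26 elsewhere, whereas Pecam1 had at most 17 in any library. Erg and Tek of that list went the other way. Erg had 1139, 671 and 211 counts in MEF and 24, 63 and 2 with MyoD F/R/C. Tek had 47, 45 and 24 counts in MEF and 2, 0 and 2 with MyoD F/R/C. The 8 cartilage markers summed to 29.2 to 274 CPM in MEF, 22.5 to 175 CPM with MyoD and 20.4 to 28.0 CPM with MyoD F/R/C. The 8 adipocyte markers summed to 39.4 to 116 CPM, 26.1 to 98.8 CPM and 18.9 to 101 CPM in the same order, so the groups overlapped. The 10 neural and glial markers summed to 1396 to 2100 CPM with MyoD F/R/C against 122 to 372 CPM elsewhere. Nes, which encodes nestin and is also known from developing muscle, gave 1339 to 2060 CPM of that sum, while Sox10 had at most 10 counts. Stmn2 and Sox2 of that list went the other way. Stmn2 stood at 9.48, 9.98 and 4.61 CPM with MyoD F/R/C and 12.8 to 310 CPM elsewhere. Sox2 stood at 5.41, 3.05 and 0.384 CPM with MyoD F/R/C and 10.1 to 44.0 CPM elsewhere. The 15 proliferation markers summed to 193 to 401 CPM in the other groups and 257 to 361 CPM with MyoD F/R/C.

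With MyoD alone, only H19 of the 10 members had no overlap with MEF in CPM, beside 7.52% of all genes tested. Its CPM was lower in each MyoD library than in any MEF library. The difference was small (log2 fold change -0.25 ± 0.33 SE), and the H19 libraries overlapped on other scales. In TPM they stood at 2964, 3079 and 2836 in MEF and 2865, 3115 and 1808.5 with MyoD. As a share of all counts H19 took 0.336% to 0.382% in MEF and 0.228% to 0.388% with MyoD. The other members overlapped, with log2 fold changes from -1.39 for Igf1 to 0.35 for Igf2r and a median of -0.22 over the 10, beside -0.01 over all genes.

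The other genes of the pathway were taken from 6 lists of 82 genes by function, of which 69 were tested. For MyoD F/R/C against MEF, 15 were higher and 7 lower (31.9% of those tested, beside 37.6% of all genes), and against MyoD 12 were higher and 6 lower (26.1%, beside 33.9%). Both shares were below those of all genes. The median log2 difference was 0.03 against MEF and 0.14 against MyoD. For MyoD against MEF edgeR called 0, with 5 at an unadjusted p under 0.05, and DESeq2 called 2 (Igfn1 higher and Adam12 lower). Igfn1, counted in the 15 higher against MEF and in these 2, is a muscle protein and not an IGF pathway gene.

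The largest list, PI3K, Akt and mTOR, had 7 of 24 genes higher and 3 lower against MEF, and 4 higher and 3 lower against MyoD. Foxo4, a transcription factor that Akt keeps out of the nucleus, stood at 19.7 ± 1.43 CPM (SD, n = 3) in MEF, 20.2 ± 3.47 CPM with MyoD and 138 ± 13.8 CPM with MyoD F/R/C (edgeR log2 fold change 2.81 ± 0.18 SE against MEF, adjusted p = 0.000178). Akt2, an Akt kinase of insulin-responsive tissues, rose from 217 ± 58.3 CPM (MEF) to 557 ± 28.7 CPM (1.36 ± 0.27, adjusted p = 0.00571). Pdpk1, the kinase that activates Akt, rose from 72.4 ± 2.67 CPM to 149.8 ± 38.6 CPM (1.05 ± 0.22, adjusted p = 0.00648). These 3 were called in the same direction against MyoD, with adjusted p from 0.000286 for Foxo4 to 0.00755 for Akt2. Of the Foxo genes, Foxo6 was called higher against MEF (adjusted p = 0.0161), a call lost without MEF replicate 1 (adjusted p = 0.0559), and was not called against MyoD. Foxo1 and Foxo3 were not called in either comparison.

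Of 12 tested adaptors and feedback genes, 1 was higher and 2 were lower against MEF, and 2 were higher and 2 lower against MyoD. Irs1, a docking protein of the IGF1 receptor, rose from 104 ± 22.3 CPM in MEF to 184 ± 19.9 CPM (SD, n = 3; edgeR log2 fold change 0.83 ± 0.20 SE, adjusted p = 0.0131). That call was lost without MEF replicate 1 or 2 (adjusted p up to 0.0692), while the call against MyoD held in every setting (1.28 ± 0.21, adjusted p = 0.00296). Shc1, an adaptor that links the receptor to Ras, fell from 387 ± 34.4 CPM to 187 ± 34.1 CPM (-1.05 ± 0.20, adjusted p = 0.0042). Grb14, an inhibitor of the insulin receptor, fell from 41.9 ± 8.003 CPM to 10.3 ± 5.44 CPM (-2.02 ± 0.42, adjusted p = 0.00674), and its call against MyoD was lost without MyoD replicate 2 or 3 or the third MEF and MyoD libraries (adjusted p up to 0.0573). Grb10, an imprinted inhibitor of both receptors, passed against MyoD (1.58 ± 0.43, adjusted p = 0.0232) but lost that call without any 1 of MyoD replicates 1 and 2 or the MyoD F/R/C libraries (adjusted p up to 0.0911).

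Of 8 tested proteases and inhibitors, Pappa (PAPP-A, the protease that cleaves IGFBP4) fell and Stc1, a stanniocalcin of the family that inhibits PAPP-A, was called higher against MEF. Pappa stood at 91.8 ± 43.1 CPM in MEF, 32.8 ± 6.94 CPM with MyoD and 11.7 ± 8.62 CPM with MyoD F/R/C (SD, n = 3; edgeR log2 fold change against MEF -2.98 ± 0.55 SE, adjusted p = 0.00393). Igfbp4 and Pappa were thus both lower with MyoD F/R/C than in MEF. The Stc1 call (2.41 ± 0.82, adjusted p = 0.046) was lost in 9 settings, with an adjusted p of up to 0.185. Htra1, a secreted serine protease, was called higher against MyoD (19.4 ± 8.44 to 115 ± 28.3 CPM, 2.57 ± 0.54, adjusted p = 0.00819) and had an adjusted p of 0.0554 against MEF. The list of ligand, receptor and binding protein genes outside the 10 members had 4 tested genes. Its only call was Igfn1, a muscle protein with immunoglobulin and fibronectin domains that is no IGF ligand, receptor or binding protein. It stood at 0.12 ± 0.21 CPM in MEF, 6.18 ± 2.98 CPM with MyoD and 20.2 ± 13.7 CPM with MyoD F/R/C (adjusted p = 0.0025 against MEF). The insulin receptor Insr was not called, and Ins1 was at 0 counts in every library.

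Of 8 tested mRNA-binding and let-7 related genes, 2 were higher and 1 lower in both MyoD F/R/C comparisons. Igf2bp1, which binds Igf2 and H19 RNA, rose from 19.2 ± 6.91 CPM (MEF) to 49.3 ± 5.70 CPM (SD, n = 3; edgeR log2 fold change 1.36 ± 0.27 SE, adjusted p = 0.00547), a call that was lost with counts scaled from TPM (adjusted p = 0.0635, the highest of a range from 6.93e-05). Igf2bp2 was called against MEF at an adjusted p of 0.043, lost in 7 settings with up to 0.15, and against MyoD at 0.0196, lost without MyoD replicate 2 or MyoD F/R/C replicate 1 or 2 with up to 0.0768. Hmga2, a chromatin protein that promotes Igf2bp2 expression and is a let-7 target, fell from 235 ± 23.5 CPM in MEF and 326 ± 46.0 CPM with MyoD to 52.3 ± 23.4 CPM (-2.17 ± 0.35, adjusted p = 0.00231, and -2.64 ± 0.36, adjusted p = 0.00156).

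Of 13 tested imprint regulators and transcripts of the locus, 3 were higher and 0 lower in both comparisons. Zfp57, a zinc finger protein that maintains imprints, passed against MyoD (1.99 ± 0.44, adjusted p = 0.00984), and its call against MEF (adjusted p = 0.048) was lost in 11 settings with up to 0.162. The other 2, Nctc1 and Igf2os, are transcripts of the H19 and Igf2 region. Nctc1 starts at -19.5 kb from the H19 start site, where negative distances point away from Igf2, in the stretch known for mesodermal enhancers, and had 0, 0 and 1 counts in MEF, 4, 2 and 5 with MyoD, and 64, 50 and 84 with MyoD F/R/C. Against MyoD its log2 fold change was 4.16 ± 0.67 (edgeR adjusted p = 0.00292). Against MEF its adjusted p was 0.000686, and no fold is given since MEF lay under 3 counts.

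**Figure D4:**
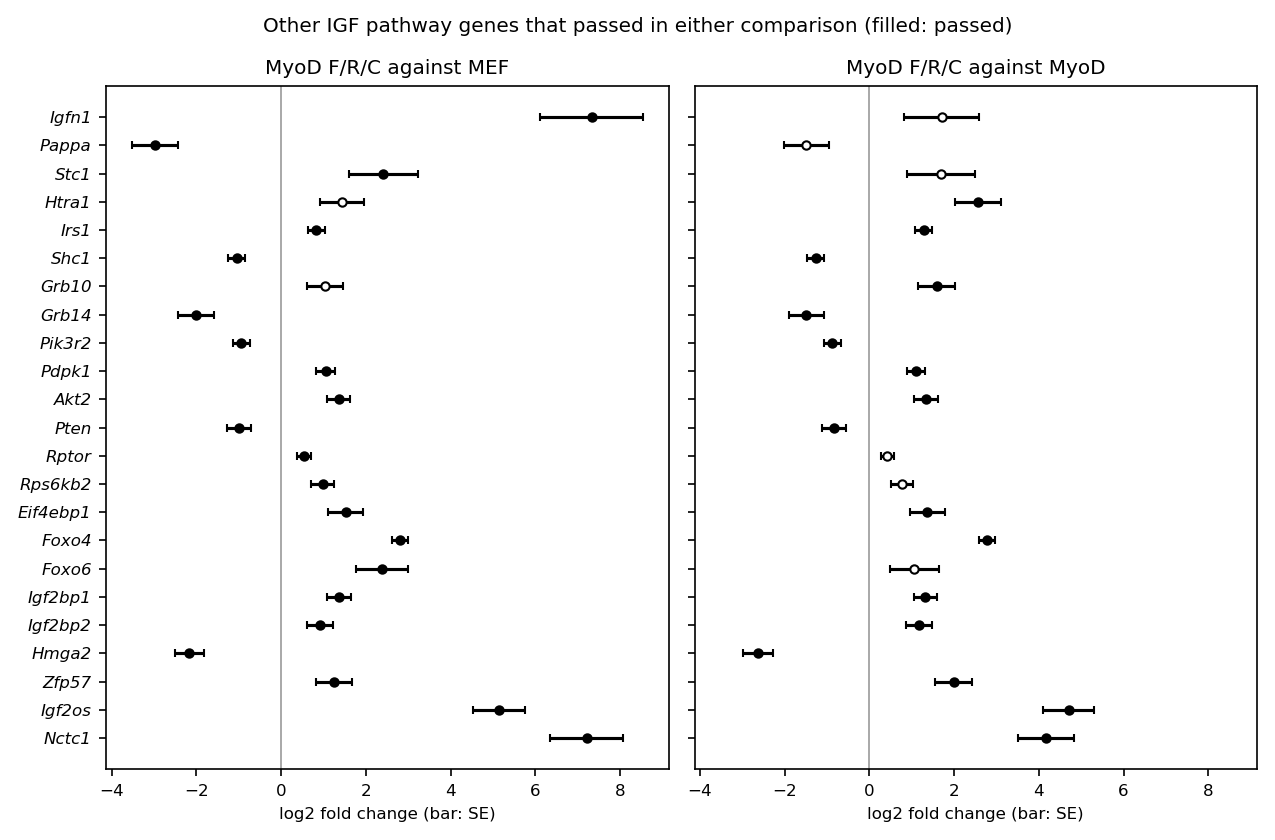
Log2 fold change (points, SE as bars) of genes on the pathway lists outside the 10 members, each called in at least 1 of the 2 MyoD F/R/C comparisons. Filled points were called. The 2 panels share the MyoD F/R/C libraries and the same horizontal scale, and fitted values of genes near 0 counts in MEF, such as Igfn1 and Nctc1, depend on the prior count.

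Around the pair, 23 annotated genes lay within 200 kb of the span from H19 to Igf2. Of the 21 others, 15 had a row and 12 were tested. For MyoD F/R/C, 7 were higher (Tnni2, Tnnt3, Prr33, Nctc1, Gm33148, Gm49394 and Igf2os) and 2 lower (Ctsd and Gm49369) against MEF, and the same 7 and 2 genes were called against MyoD. Against MyoD the calls of Tnni2 and Tnnt3 were lost without MyoD replicate 1 or 2 or MyoD F/R/C replicate 3 (and, for Tnni2, replicate 2), that of Prr33 without MyoD replicate 2 and with counts scaled from TPM, and that of Gm49394 without MyoD F/R/C replicate 2. The adjusted p in those settings went up to 0.093, 0.0787, 0.099 and 0.0501 for Tnni2, Tnnt3, Prr33 and Gm49394. Beside the 12, 37.6% and 33.9% of all genes were called. Igf2os, transcribed antisense to Igf2, stood at 0.60, 4.11 and 3.23 CPM in MEF, 2.64, 3.63 and 4.57 CPM with MyoD, and 79.5, 98.3 and 105.1 CPM with MyoD F/R/C. Its log2 fold change was 5.15 ± 0.62 SE against MEF (edgeR adjusted p = 0.000692) and 4.70 ± 0.60 against MyoD (adjusted p = 0.00131). Igf2os and Gm49394 overlap Igf2, and since the use of strand in counting was not given, reads of these genes and of Igf2 cannot be told apart with certainty. The same holds for Gm49369 and Ctsd, which overlap on the same strand, and for Prr33, which overlaps Lsp1 and Tnnt3 on the opposite strand.

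The fast troponin genes Tnnt3 and Tnni2, which lie on the H19 side and are among the muscle markers above, rose with MyoD F/R/C. Tnnt3 averaged 6.61 ± 9.25 CPM (SD, n = 3) in MEF, 86.7 ± 29.7 CPM with MyoD and 1345 ± 451 CPM with MyoD F/R/C (edgeR log2 fold change 7.67 ± 1.27 SE against MEF, adjusted p = 0.00254). Tnni2 averaged 4.35 ± 6.98, 34.2 ± 16.3 and 785 ± 259 CPM (7.50 ± 1.49, adjusted p = 0.0053). Not all genes of the region followed. Ctsd, the lysosomal protease cathepsin D, at -190.1 kb from the H19 start site, fell from 2187 ± 535 CPM to 861 ± 39.1 CPM (-1.35 ± 0.26, adjusted p = 0.00493). Gm49369, which overlaps Ctsd on the same strand, fell from 146 ± 24.03 CPM to 52.9 ± 10.8 CPM (-1.46 ± 0.22, adjusted p = 0.00166). Lsp1, between the 2 troponin genes (138 ± 141 CPM in MEF and 184 ± 40.4 CPM with MyoD F/R/C, adjusted p = 0.692) and Mrpl23, between Tnnt3 and H19 (26.0 ± 2.03 and 36.0 ± 12.4 CPM, adjusted p = 0.174), were not called. The second of these was named after its values were seen.

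**Figure D5:**
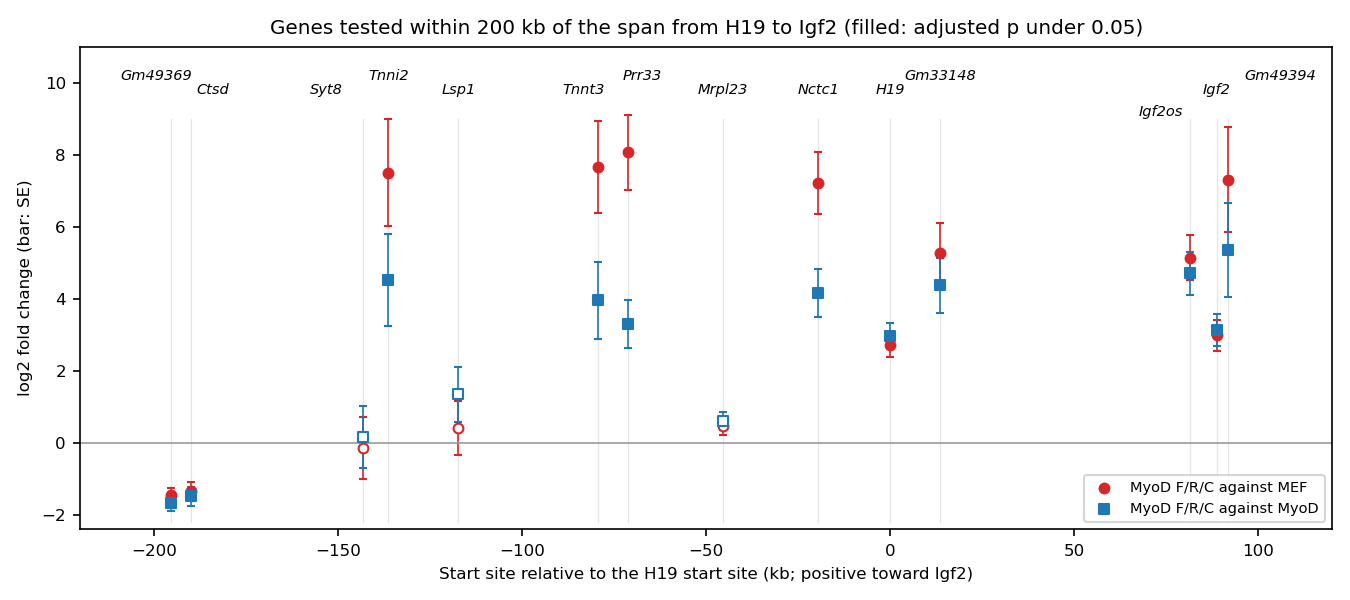
Log2 fold change (SE as bars) of the tested genes within 200 kb of the span from H19 to Igf2, by the distance of their start sites from that of H19. Red circles compare MyoD F/R/C with MEF and blue squares with MyoD, and filled points were called. Genes near H19 and Igf2 and the troponin genes lie above 0, and Ctsd and Gm49369 at the left end lie below it. Fitted values of Prr33, Nctc1 and Gm33148 depend on the prior count, since their MEF libraries held 2 counts or fewer.

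Transcript usage, the share of a gene that each transcript takes, was not used to choose the members. Of their 47 annotated transcripts with a row, 30 in 8 genes were tested against the other transcripts of the same gene, and edgeR called 0 in each of the 3 comparisons, where 0.0556%, 1.05% and 0.624% of all 39581 transcripts were called. At an unadjusted p under 0.05 there were 1, 3 and 1, and limma called 0. Igf2-201, which begins at the window printed above, held 63.8%, 62.6% and 62.6% of Igf2 TPM in MEF, 62.4%, 58.2% and 54.1% with MyoD, and 47.4%, 45.5% and 35.4% with MyoD F/R/C. The MyoD F/R/C shares were the lowest, but the usage test did not pass (adjusted p = 1 in both comparisons). Igf2-205, which begins further upstream, held 6.68% ± 0.85 (SD, n = 3) in MEF, 9.45% ± 3.76 with MyoD and 16.4% ± 6.08 with MyoD F/R/C. Igf2-208, a short transcript without a coding sequence, held 29.6% ± 1.41, 30.8% ± 2.78 and 34.1% ± 17.0, with 53.3% in MyoD F/R/C replicate 3.

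The smallest adjusted p of the member transcripts was 0.058, for Igf2-207 in MyoD F/R/C against MyoD, where its shares of 8.87%, 4.77% and 0% in the MyoD F/R/C libraries differed among themselves. Over the other settings that adjusted p ran from 0.0113 to 0.943. Igf1r-206, a retained-intron transcript, held 1.58%, 0% and 2.36% of Igf1r TPM in MEF, 17.3%, 1.80% and 6.68% with MyoD, and 20.1%, 16.3% and 34.0% with MyoD F/R/C (adjusted p = 0.121 against MEF). H19-202, the full-length H19 transcript, held 90.7% ± 1.93 of H19 in MEF, 87.4% ± 2.11 with MyoD and 86.4% ± 13.0 with MyoD F/R/C, where replicate 3 stood apart at 71.5%. Igfbp4 was spread over 3 transcripts at similar shares in all groups, with Igfbp4-201 at 23.6% to 30.4% in the 9 libraries.

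The genes with the profile most like that of H19 over the 9 libraries were Nelfcd, Bnip3, Rab40b, Grhpr and Dclk1, by the root mean square difference of log2 CPM after centring each of 9752 genes on its mean. That difference was 0.24 for Nelfcd, a subunit of the negative elongation factor, and 0.28 for the other 4, from Bnip3 to Dclk1. Bnip3, a mitophagy receptor, stood at 44.5 ± 7.28 CPM (SD, n = 3) in MEF, 37.2 ± 3.29 CPM with MyoD and 232 ± 15.8 CPM with MyoD F/R/C. For Igf2 they were Utp14b (0.38), Ubash3b (0.38), H19 (0.39), Ksr1 (0.42) and Rab40b (0.42). Predicted genes (named Gm or Rik) and pseudogenes were left out before ranking. Among the 9752 genes ranked, H19 was thus the third closest gene to Igf2, and Rab40b stood among the 5 closest to both.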

How the data were processed

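Polyadenylated RNA was sequenced from 9 libraries with the TruSeq Stranded mRNA kit, as stated by the labels. The submitters' processing notes name bcl2fastq 2.19, Trimmomatic 0.36, kallisto 0.44, edgeR 3.28 and GRCm38.p6 for the authors' steps. Kallisto options, annotation and strand setting are not given in the sources used here. For 121843 transcripts the deposited tables give, per the file headers, estimated counts (expected counts, from the authors) and TPM.

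Transcripts were joined to genes with GENCODE M21 (121104 matched, and the other 739 took 0.200% to 0.494% of a library). Estimated counts were summed per gene and rounded. Levels are CPM on TMM-scaled library sizes, and TPM was used to compare genes. Because 3 counts, which a count of 0 allows, were 0.113 to 0.144 CPM, lower levels are not resolved, counting error only. The gene test was the edgeR 4.0.16 quasi-likelihood test in R 4.3.3 (filterByExpr with minimum count 10 and total 15, 15714 genes, 1 fit over the 9 libraries, two-sided, Benjamini-Hochberg adjustment within a comparison, threshold 0.05). The SE was derived from the log2 fold change and the F statistic. Transcript usage was tested with diffSpliceDGE, and limma 3.58.1 and DESeq2 1.42.0 were alternatives. The scripts were tested on simulated data. The members and lists were chosen with earlier results of these data known. Genes were named by rule: all members, up to 3 called genes of smallest adjusted p in the main direction and 1 in the other for each pathway list, up to 6 locus genes by mean level, the 5 genes most like H19 and Igf2 with average log2 CPM of at least 3, and transcripts with 5% of a gene. Names outside it (Foxo1, Foxo3, Foxo6, Insr, Ins1, Adam12, Mrpl23, Igf2-207 and the lesser locus genes) were added after seeing values. One pathway gene that the rule names is counted but not reported here.

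Replicate numbers come from the titles. The titles state no pairing. Deviations of equal numbers from their group means correlated at 0.655, 0.632 and 0.729 between MEF and MyoD. Between MEF and MyoD F/R/C they correlated at 0.142, 0.151 and 0.101. All of these were above the limit of 0.1 taken for pairing, the last ones only just. Between MyoD and MyoD F/R/C they were 0.0837, 0.119 and 0.164, the first of them under that limit. Each was above the highest correlation with another number (0.0221, 0.0447 and -0.0973). These values lay close to those between MEF and MyoD F/R/C, so the limit does not show that MyoD and MyoD F/R/C are unpaired.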

Additional observations from a re-analysis of the deposited data

How the results depend on the processing

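Each choice was changed alone in 18 settings, 17 planned and 1, without the third MEF and MyoD libraries together, added after seeing the data. Of 540 member fold changes, 535 moved by less than their error, 5 moved by more and 0 of the called values changed sign. The replicate block, which pairs libraries by number, changed no member call. It moved the genes called for MyoD against MEF from 0 to 13, and the pathway genes called from 22 to 26 against MEF and from 18 to 20 for MyoD F/R/C against MyoD. For MyoD against MEF, genes called went from 0 to 171 with DESeq2, 11 with no low-count filter and 199 without the third MEF and MyoD libraries, and from 0 to 161 without single libraries, the highest without MEF replicate 3. Pathway genes called there went from 0 to 2 with DESeq2, 1 without the third libraries and 0 to 1 without single libraries. Igfn1, not an IGF pathway gene, was among the 2 and was the only call in the other settings. Over all genes, transcripts with changed usage were 22 for MyoD against MEF, and became 0 with limma, 35 with a mean of at least 10 counts, 41 in a fit of those 2 groups alone and 8 to 41 without single libraries. They were 414 for MyoD F/R/C against MEF (790 with limma, 215 to 453 without single libraries, the lowest without MEF replicate 2) and 247 for MyoD F/R/C against MyoD (620 with limma, 92 to 252 without single libraries, the lowest without MyoD replicate 1). The causes of these shifts were not tested. With 3 libraries a group, members that varied within groups (Igfbp2, Igfbp5, Igfbp6) had SEs of 0.77 to 0.93 on the log2 scale against MEF and were not called, up to the Igfbp2 difference of 0.89.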
